A study of Mus musculus with 15 samples.

Results

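Cholesterol and fatty acids are built from the same small precursor, and the 41 genes described here encode the enzymes and regulators that do so. They were followed across 15 mouse liver tumors measured on 1-colour Agilent gene expression arrays. The 41 genes were chosen by name, 18 for a sterol branch and 23 for a fatty acid branch, and each was read from the array probes that carry its symbol and are not controls. These were 64 probes, 27 of the sterol branch and 37 of the fatty acid branch. All 41 genes were among the 17055 genes with a RefSeq name and a probe that the scanner software called well above background in 3 or more tumors of a group.

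The tumors fell into 3 groups of 5, with 1 array per tumor of total RNA from whole tumor tissue. Hepatocellular carcinomas (HCC) came from p53f/f mice, the controls, in which Trp53 is flanked by recombination sites on both alleles and is still intact, and from p53LKO mice, in which Trp53 was deleted in the liver. The third group held tumors of p53LKO mice labelled ICC, the usual abbreviation of intrahepatic cholangiocarcinoma, a cancer with features of bile duct cells. There was no ICC group of p53f/f mice. All groups shared the C57/BL6J background, and all mice received carbon tetrachloride (CCl4), a liver toxin, in olive oil by intraperitoneal injection at 0.5 µl per g body weight for 16 weeks, so that no group is untreated and no normal liver was part of the comparisons. Injections began at 6 weeks of age, and the HCC compared were from male mice. The sex of the mouse that gave an ICC alone, the promoter that drives the recombinase and the age of each mouse at sampling are not given in the sources used here. The paper reports that tumors formed later in p53f/f than in p53LKO mice. Age at sampling may thus have differed with genotype between the HCC, and its part was not tested. The 15 tumors came from 10 mice. Mouse 3717 gave 2 of the p53f/f HCC, and mice 3731, 3733, 3976 and 5283 each gave both an HCC and an ICC.

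Cholesterol synthesis runs from acetyl-CoA over mevalonate and the isoprenoid farnesyl diphosphate to squalene, which is closed into a ring and trimmed to cholesterol. Fatty acid synthesis carboxylates acetyl-CoA and extends it to palmitate, which is then elongated, desaturated and joined to glycerol in triglycerides, and the liver is a main site of both. The transcription factor SREBP-2, encoded by Srebf2, acts mainly on sterol genes, SREBP-1c, from Srebf1, and ChREBP, from Mlxipl, act mainly on fatty acid genes, and the INSIG proteins hold the SREBP precursors in the endoplasmic reticulum when sterols are plentiful.

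SREBPs bind sterol regulatory elements, often close to a CCAAT box, the motif bound by the factor NF-Y. Both motifs were therefore looked for in promoter windows of RefSeq for assembly GRCm38.p6, which reach from 250 bases before a gene's start to 50 bases after it, on both strands. Of the 41 genes, 32 had a window. CCAAT was present in 14 of the 15 sterol branch genes with a window (93.333%) and in 12 of 17 of the fatty acid branch (70.588%), where 41.058% of all 27025 genes with a window held it. TCACNCCAC, a form of the sterol regulatory element, was found in Hmgcs1 and Mlxipl alone among the 32, and in 1.436% of all genes. For 6 genes that the results below turn on, an enzyme at the entry of the mevalonate pathway, 2 further sterol enzymes, the regulators Srebf2 and Thrsp, and fatty acid synthase, the 200 bases before the start are shown 5′ to 3′ on the strand of the gene. Capitals mark CCAAT, its reverse complement ATTGG, and TCACNCCAC. Hmgcs1 lies on the plus strand (chr13:119690151-119690350), as do Mvk (chr5:114444069-114444268) and Srebf2 (chr15:82147069-82147268). Hsd17b7 (chr1:169969206-169969405), Fasn (chr11:120824548-120824747) and Thrsp (chr7:97417551-97417750) lie on the minus strand.
Hmgcs1: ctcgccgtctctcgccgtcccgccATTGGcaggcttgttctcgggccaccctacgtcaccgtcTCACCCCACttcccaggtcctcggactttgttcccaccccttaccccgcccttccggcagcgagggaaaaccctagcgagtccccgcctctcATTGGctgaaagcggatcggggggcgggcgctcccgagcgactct
Mvk: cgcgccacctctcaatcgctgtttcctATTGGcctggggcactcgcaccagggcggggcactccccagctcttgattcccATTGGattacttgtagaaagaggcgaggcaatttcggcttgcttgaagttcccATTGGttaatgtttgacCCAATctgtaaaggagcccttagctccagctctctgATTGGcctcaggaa
Hsd17b7: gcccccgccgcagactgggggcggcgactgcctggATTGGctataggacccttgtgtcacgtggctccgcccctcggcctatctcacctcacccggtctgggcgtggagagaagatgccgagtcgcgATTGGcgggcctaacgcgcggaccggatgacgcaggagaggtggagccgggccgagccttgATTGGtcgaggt
Srebf2: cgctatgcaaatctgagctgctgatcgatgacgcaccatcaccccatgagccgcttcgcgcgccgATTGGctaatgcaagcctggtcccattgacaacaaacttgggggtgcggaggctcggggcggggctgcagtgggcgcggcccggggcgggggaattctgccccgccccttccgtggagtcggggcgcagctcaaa
Fasn: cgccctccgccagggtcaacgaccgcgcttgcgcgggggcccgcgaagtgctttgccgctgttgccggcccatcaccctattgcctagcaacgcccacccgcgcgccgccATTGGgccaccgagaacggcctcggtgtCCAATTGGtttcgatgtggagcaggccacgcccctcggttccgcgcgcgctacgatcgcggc
Thrsp: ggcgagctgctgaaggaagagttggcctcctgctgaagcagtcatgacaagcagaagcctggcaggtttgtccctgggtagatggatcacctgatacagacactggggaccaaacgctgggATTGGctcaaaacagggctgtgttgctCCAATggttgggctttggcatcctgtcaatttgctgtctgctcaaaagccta
Mvk has 5 such boxes in this stretch, Hsd17b7 and Fasn have 3 each, Hmgcs1 and Thrsp have 2 each, and Srebf2 has 1. In Fasn a pair of them on opposite strands shares bases. The single TCACCCCAC lies between both boxes of Hmgcs1, and the matches of the 2 motifs do not overlap there. These are matches of letters and were not tested as binding sites.

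Levels are given as the log2 of the processed signal relative to the 75th percentile of the probes of the same array, so that 1 unit is a 2-fold difference for a probe, and levels of different probes are not compared. Well above background were 55.1% to 70.1% of the probes in the p53f/f HCC, 37.0% to 62.1% in the p53LKO HCC and 42.5% to 47.0% in the ICC. The single probe of Trp53, placed on chromosome 17 where a pseudogene lies, ranged from -1.27 to -0.68 in the p53f/f HCC, from -3.86 to -2.75 in the p53LKO HCC and from -4.19 to -2.31 in the ICC. Whether it reads the gene or the pseudogene was not settled. Krt19, a keratin of bile duct cells, was higher in the ICC than in the p53LKO HCC by 4.67 on the log2 scale, and Epcam, a surface protein of biliary epithelium, was well above background in 5 of 5 ICC and 0 of 5 p53LKO HCC.

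Between HCC of both genotypes few of the 41 genes differed. In p53LKO HCC Srebf2 and Me1 were higher, and Elovl2, Elovl5 and Lpin1 were lower, than in p53f/f HCC, taking as thresholds a 2-fold change and an adjusted p of 0.05 by limma. By this rule 5.41% of the 16852 genes tested were higher and 8.95% were lower, and 14.4% and 13.6% passed the adjusted p alone. The sterol branch had 1 of 18 genes higher and 0 lower, and the fatty acid branch 1 of 23 higher and 3 lower, counts too small to stand apart from those shares. Of 25 alternatives, 16 ended the call of Me1, 12 that of Elovl2, 6 that of Elovl5, 5 that of Lpin1 and 1 that of Srebf2. The median log2 difference was 0.08 in the sterol and -0.01 in the fatty acid branch, where the median of all genes was 0.095. Scaled to the spike-in probes instead, which moves the median of all genes to 0.83 and calls 6134 genes higher and 583 lower in place of 912 and 1508, 6 sterol and 6 fatty acid genes were higher and 0 lower. Scaled to the probes above background on every array, with 431 of all genes higher and 2208 lower, 0 sterol genes passed and 3 fatty acid genes were lower.

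Between ICC and HCC of p53LKO mice most of them fell. Of the 40 genes tested, 29 were lower in the ICC by at least 2.05-fold and up to 8.43-fold, and 0 were higher. Among all 16143 genes tested 15.5% were lower and 12.3% higher, and 29.7% and 17.7% passed the adjusted p alone. Lower were 14 of 18 genes of the sterol branch, with a median log2 difference of -1.5, and 15 of 22 of the fatty acid branch, with a median of -1.32, where the median of all genes was -0.19. Scaled to the probes above background on every array, which moves the median of all genes to 0.18 and calls 2940 genes higher and 1365 lower in place of 1992 and 2506, 11 sterol and 9 fatty acid genes were lower and 0 higher. In 21 of the 40, all of them among the 29, all 5 ICC lay below all 5 p53LKO HCC, where 20.3% of all genes tested did so. This order gives an exact 2-sided permutation p of 0.00794, the smallest that 5 against 5 allows. The test does not use the pairing of tumors by mouse. The exact p of the other 8 was 0.0159 to 0.0317. Apart from Me1, these genes had not passed the thresholds between the HCC. Both comparisons share the p53LKO HCC arrays. A further 22 probes of 19 of the genes were tested in each comparison. Those of Mlxipl, Srebf2, Me1, Fdft1 and Pnpla3 that gave another call are described with the genes. Between the HCC the sign of a second probe differed without a call for Acaca (-0.64), Nsdhl (-0.57), Acss2 (-0.14), Acacb (-0.07), Fdft1 (-0.01) and Insig2 (0.04), and between ICC and HCC for Acly (0.09).

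**Figure D1:**
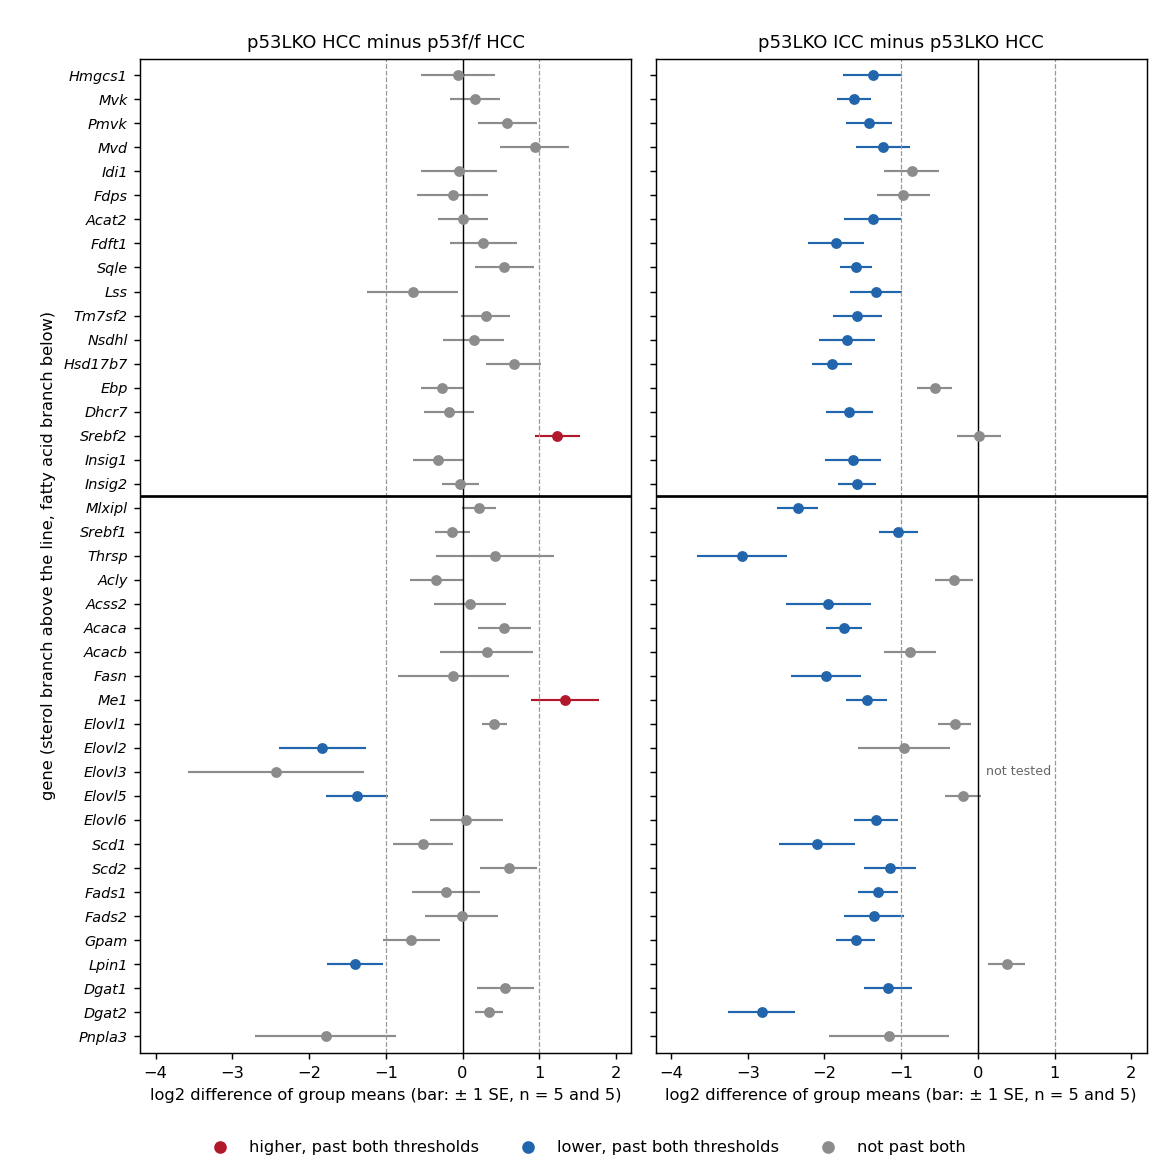
Log2 differences of the 41 genes between p53LKO HCC and p53f/f HCC (left) and between p53LKO ICC and p53LKO HCC (right). Points are differences of group means with n = 5 and 5, bars are 1 SE, dashed lines mark a 2-fold change, and red and blue mark genes higher and lower past both thresholds. On the left 5 genes are coloured, on the right 29, all of them blue.

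Other features of the tumors differed between the same groups. Hepatocyte markers fell too, 6 of 9 passing the thresholds, among them albumin, Alb (log2 difference -1.91), and the liver transcription factor gene Hnf4a (-2.03), with a median of -1.66 over the 9. Their summed level was 10.48 to 10.94 in the p53LKO HCC and 7.14 to 9.74 in the ICC, and every one of the 9 was well above background in all ICC. Of 7 biliary markers tested, Krt19 and Spp1 (4.73) rose and Anxa13 (-1.34) fell, while Epcam and Krt7, which passed as higher too, had entered the test through the ICC alone, being well above background in 0 and 1 of the 5 p53LKO HCC. The summed level of the 7 was 3.92 to 5.26 in the p53LKO HCC and 6.14 to 7.24 in the ICC. For markers of stellate cells and fibroblasts, of which 3 of 6 were higher, the ranges were 4.89 to 7.12 and 7.71 to 8.66. Of the 5 endothelial markers 0 passed both thresholds, while their summed level was 4.68 to 5.05 in the p53LKO HCC and 3.44 to 4.43 in the ICC. That sum is carried mostly by the brightest, Kdr (-0.94), which passed the adjusted p alone. Lyve1 (-1.48) and Stab2 (-0.86) had lower means in the ICC too, while Pecam1 (0.01) and Cdh5 (0.22) did not. Of the 5 lymphocyte markers 2 were higher, with summed levels of 2.71 to 3.02 and 2.39 to 3.38, and of the 6 macrophage markers 1 was higher, with 5.83 to 6.83 and 6.1 to 6.72. Of the 2 pancreatic acinar markers tested 1, Ctrb1, was lower (-1.28), and the summed level over 3 of the 5 listed was 0.16 to 1.02 in the p53LKO HCC and -0.7 to -0.1 in the ICC. Of the 2 adipocyte markers tested 1, Retn, passed as higher, but it entered the test through the ICC alone, being well above background in 3 of 5 ICC and 2 of 5 p53LKO HCC. The part of these differences in the fall of the synthesis genes was not tested, and in whole tumor tissue fewer cells of a type and less RNA per cell cannot be told apart. All ICC lay in the lower row of their slide together with 2 of the p53LKO HCC. Against those 2 HCC alone, a choice made after seeing the data, 7 sterol and 8 fatty acid genes were lower past both thresholds, where 12.2% of all genes were lower and 9.06% higher. All 29 genes had a lower mean in the ICC there too, on arrays that had a part in calling them.

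Of the 7 mevalonate and isoprenoid enzymes, 5 fell in the ICC. Hmgcs1, HMG-CoA synthase, which makes the precursor of mevalonate, had levels of 7.78, 7.27, 6.34, 5.81 and 5.15 in the p53f/f HCC, 5.92, 7.25, 6.30, 5.79 and 6.81 in the p53LKO HCC, and 6.05, 4.08, 4.93, 5.41 and 4.73 in the ICC. The order of tumors in this and the following sentences is 3681 T1, 3715 T2, 3716 T1, 3717 T1 and 3717 T2 for the p53f/f HCC, mice 3731, 3733, 3975, 3976 and 5283 for the p53LKO HCC, and mice 3731, 3733, 3976, 3977 and 5283 for the ICC. The p53LKO HCC lay within the range of the p53f/f HCC for Hmgcs1, and 4 of the 5 ICC lay below every p53LKO HCC (-1.37 ± 0.39, 2.59-fold, adjusted p = 0.015, the first value being the log2 difference with its SE). Mvk, mevalonate kinase, measured 5.03, 4.03, 3.43, 3.58 and 3.21 in the p53f/f HCC, 3.56, 4.13, 4.30, 4.25 and 3.84 in the p53LKO HCC, and 2.83, 1.81, 2.26, 2.55 and 2.55 in the ICC. All ICC were also below all p53f/f HCC here, and the fall from the p53LKO HCC was 3.06-fold (-1.61 ± 0.23, adjusted p = 0.00039). Pmvk, which adds the next phosphate, had levels of 5.41, 4.82, 4.52, 3.58 and 3.50 in the p53f/f HCC, 4.36, 5.52, 5.32, 4.49 and 5.05 in the p53LKO HCC, and 4.25, 2.87, 3.32, 3.68 and 3.51 in the ICC. Each ICC lay under each p53LKO HCC (-1.43 ± 0.30, 2.69-fold, adjusted p = 0.00355), while the p53f/f HCC spread over both. Mvd, the decarboxylase that yields isopentenyl diphosphate, measured 1.77, 1.41, 0.62, 0.49 and -0.25 in the p53f/f HCC, 0.96, 2.66, 2.53, 1.58 and 1.01 in the p53LKO HCC, and 0.76, 0.13, 0.28, 0.76 and 0.62 in the ICC. It too fell without overlap (-1.24 ± 0.35, 2.36-fold, adjusted p = 0.0156), and its p53LKO HCC of mice 3733 and 3975 were the highest of all 15 tumors. Acat2, the cytosolic thiolase that joins acetyl-CoA units, had levels of 4.04, 5.28, 5.23, 4.24 and 4.16 in the p53f/f HCC, 3.89, 4.75, 4.31, 5.20 and 4.81 in the p53LKO HCC, and 4.08, 2.14, 2.95, 3.83 and 3.11 in the ICC. Only the ICC of mouse 3731 reached into the range of the HCC (-1.37 ± 0.37, 2.59-fold, adjusted p = 0.0125). Idi1, the isomerase of isopentenyl diphosphate, ranged from 4.25 to 5.66 in the p53LKO HCC and from 3.1 to 4.76 in the ICC and did not pass (-0.86 ± 0.36, adjusted p = 0.0707). Fdps, farnesyl diphosphate synthase, ranged from 5.18 to 6.82 and from 4.42 to 5.74 and passed the adjusted p but not 2-fold (-0.97 ± 0.34, adjusted p = 0.0398). Without the p53LKO HCC of mouse 3976 or 3731 or the ICC of mouse 3731, Fdps came to -1.17, -1.11 and -1.15 and passed both thresholds, as Idi1 did without that ICC (-1.08). Between the HCC none of the 7 passed, with log2 differences from -0.13 to 0.94 and the largest in Mvd (adjusted p = 0.132). With the 4 mice that gave both tumors as a block, Hmgcs1 (-1.49, adjusted p = 0.0864), Pmvk (-1.37, 0.0558), Mvd (-1.10, 0.0973) and Acat2 (-1.59, 0.0544) lost their call.

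The enzymes from squalene to cholesterol fell in 7 of 8 cases. Fdft1, squalene synthase, which commits the pathway to sterols, had levels of 3.93, 4.36, 3.57, 2.91 and 2.16 in the p53f/f HCC, 3.16, 4.55, 3.89, 2.91 and 3.80 in the p53LKO HCC, and 2.58, 0.96, 1.49, 2.06 and 1.97 in the ICC. The ICC lay below the p53LKO HCC without overlap, and the ICC of mouse 3733 was the lowest of all (-1.85 ± 0.36, 3.61-fold, adjusted p = 0.00241). A second, dimmer probe of Fdft1, well above background in 0 of 5 ICC and 3 of 5 p53LKO HCC, did not pass (-0.31, adjusted p = 0.548). The probe used is placed at mm9 chr14:19364899-19364958 and the dimmer one at chr14:63764562-63764621, far apart on the chromosome. Which of them lies at the gene was not settled, so the fall of Fdft1 rests on a probe of unchecked place. Sqle, squalene epoxidase, a slow step of the pathway, measured 6.50, 5.75, 5.58, 5.13 and 4.09 in the p53f/f HCC, 5.86, 6.42, 6.25, 5.58 and 5.68 in the p53LKO HCC, and 4.51, 3.99, 4.26, 4.40 and 4.66 in the ICC. The p53LKO HCC were tightly grouped and the ICC fell without overlap (-1.59 ± 0.21, 3.02-fold, adjusted p = 0.00028). Lss, which closes the ring to lanosterol, had levels of 4.31, 1.55, 0.69, 1.67 and 0.98 in the p53f/f HCC, 1.01, 1.82, 1.58, 0.78 and 0.78 in the p53LKO HCC, and 0.96, -0.77, -0.56, -0.12 and -0.19 in the ICC. The p53f/f HCC of mouse 3681 stood far above all others, and the ICC of mouse 3731 lay among the p53LKO HCC (-1.33 ± 0.34, 2.51-fold, adjusted p = 0.00927). Tm7sf2, a sterol reductase, measured 5.28, 5.77, 4.43, 4.34 and 4.11 in the p53f/f HCC, 4.89, 5.25, 5.34, 4.59 and 5.37 in the p53LKO HCC, and 4.41, 2.51, 3.53, 3.88 and 3.25 in the ICC. Nsdhl and Hsd17b7, which remove methyl groups from the ring together with other enzymes, had levels of 3.02, 2.05, 1.53, 1.22 and 0.77 in the p53f/f HCC, 1.48, 2.49, 2.26, 1.40 and 1.70 in the p53LKO HCC, and 1.03, -0.95, -0.17, 0.60 and 0.32 in the ICC for Nsdhl. Hsd17b7 measured 2.89, 2.43, 2.46, 1.64 and 0.87 in the p53f/f HCC, 2.25, 2.77, 3.01, 3.14 and 2.47 in the p53LKO HCC, and 1.44, 0.17, 0.55, 0.99 and 0.97 in the ICC. All 3 fell without overlap between ICC and p53LKO HCC, Tm7sf2 by 2.97-fold (-1.57 ± 0.32, adjusted p = 0.00319), Nsdhl by 3.26-fold (-1.70 ± 0.37, 0.00398) and Hsd17b7 by 3.74-fold (-1.90 ± 0.26, 0.000371), the largest fall among the sterol genes. Dhcr7, the reductase of the last step, had levels of 3.51, 2.04, 1.74, 2.61 and 2.02 in the p53f/f HCC, 1.76, 2.66, 2.32, 1.99 and 2.28 in the p53LKO HCC, and 1.34, -0.32, 0.14, 0.78 and 0.70 in the ICC. It fell without overlap as well (-1.67 ± 0.30, 3.19-fold, adjusted p = 0.00155). Ebp, a sterol isomerase, ranged from 5.10 to 6.03 in the p53LKO HCC and from 4.55 to 5.49 in the ICC and did not pass (-0.56 ± 0.23, adjusted p = 0.0622). None of the 8 passed between the HCC, with log2 differences from -0.65 for Lss to 0.67 for Hsd17b7. With the mouse as a block, Lss lost its call (-1.24, adjusted p = 0.0732). On slide 1, which held 1 ICC and 2 p53LKO HCC, Lss was 0.18 higher in the ICC.

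The regulators of the sterol branch parted. Srebf2 had levels of 0.12, -0.64, -1.31, -0.55 and -1.31 in the p53f/f HCC, 0.18, 0.44, 0.47, 0.29 and 1.11 in the p53LKO HCC, and -0.05, 0.11, 0.82, 0.33 and 1.37 in the ICC. All p53LKO HCC lay above all p53f/f HCC, and all ICC lay above every p53f/f HCC except that of mouse 3681, which 3 of the 5 ICC exceeded. Srebf2 rose 2.36-fold in p53LKO HCC over p53f/f HCC without overlap (1.24 ± 0.29, adjusted p = 0.0088), and ICC and HCC of p53LKO mice differed by 0.02 ± 0.29 (adjusted p = 0.971). Its second probe was higher by 0.83 (adjusted p = 0.0348), under 2-fold, and scaling to the probes above background on every array left the probe used at 0.99. Insig1, itself a known target of SREBPs, measured 2.41, 1.64, 2.04, 1.40 and 1.22 in the p53f/f HCC, 0.86, 2.26, 1.82, 1.48 and 0.71 in the p53LKO HCC, and 0.57, -1.21, -0.26, -0.07 and -0.03 in the ICC. Insig2 had levels of 5.76, 5.01, 5.82, 5.45 and 5.61 in the p53f/f HCC, 5.20, 5.58, 5.22, 5.33 and 6.20 in the p53LKO HCC, and 4.44, 3.45, 3.92, 4.16 and 3.70 in the ICC. Both fell in the ICC without overlap, Insig1 by 3.09-fold (-1.63 ± 0.37, adjusted p = 0.00532; with the mouse as a block -1.56, adjusted p = 0.0747) and Insig2 by 2.97-fold (-1.57 ± 0.25, adjusted p = 0.000766). Between the HCC Insig1 differed by -0.31 ± 0.33 and Insig2 by -0.03 ± 0.24, and neither passed. Srebf2 was the one gene of the 18 without a lower mean in the ICC than in the p53LKO HCC.

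**Figure D2:**
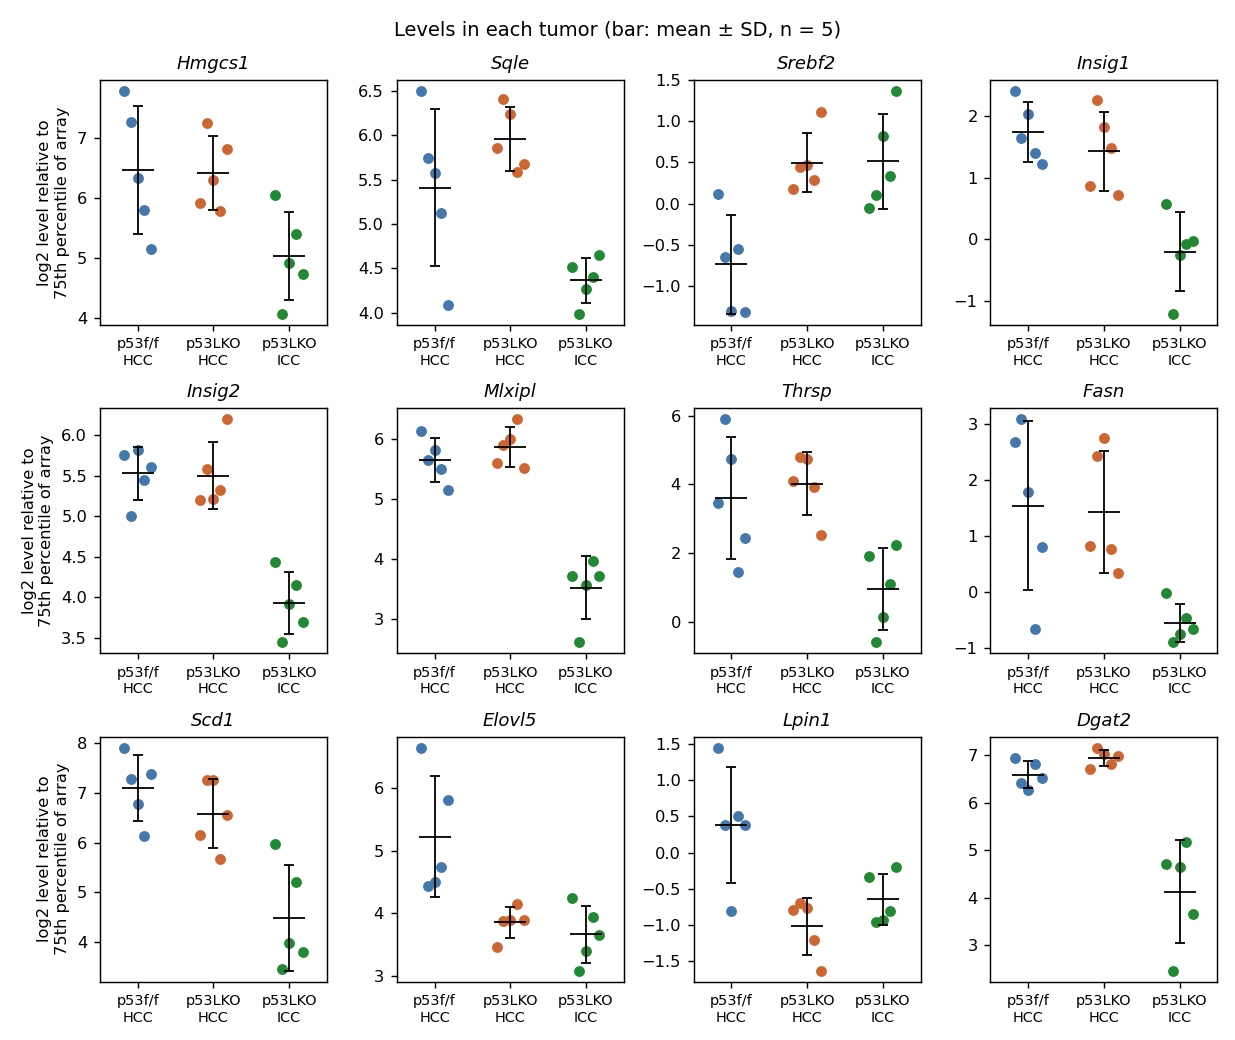
Levels of 12 genes in each tumor, with the mean and SD of each group of 5, on the log2 scale relative to the 75th percentile of the array (each panel has its own axis). Srebf2 is higher in both p53LKO groups than in the p53f/f HCC, Elovl5 and Lpin1 are lower in p53LKO HCC than in p53f/f HCC, and the other 9 genes are lower in the ICC than in the p53LKO HCC, Mlxipl by the brighter of its 2 probes.

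By the probes used, all 3 regulators of the fatty acid branch fell in the ICC. Mlxipl, which encodes ChREBP, a factor that responds to glucose, had levels of 6.13, 5.65, 5.82, 5.50 and 5.15 in the p53f/f HCC, 5.60, 5.89, 5.99, 6.32 and 5.51 in the p53LKO HCC, and 3.72, 2.61, 3.56, 3.97 and 3.72 in the ICC. The 10 HCC lay between 5.15 and 6.32, and the 5 ICC between 2.61 and 3.97, a fall of 5.10-fold from the p53LKO HCC (-2.35 ± 0.27, adjusted p = 0.000132). A second, dimmer probe of Mlxipl moved the other way. The probe used lies at mm9 chr5:135613705-135613764 and the dimmer one at chr5:135614195-135614254. The dimmer probe ranged from 4.35 to 4.75 in the p53f/f HCC, from 2.05 to 3.04 in the p53LKO HCC and from 3.02 to 4.84 in the ICC, lower in p53LKO HCC than in p53f/f HCC (-1.95 ± 0.21, adjusted p = 0.000132) and higher in the ICC (1.59 ± 0.36, adjusted p = 0.00515). The mean of both probes did not pass (-0.38, adjusted p = 0.214), so the direction for Mlxipl depends on the probe. Srebf1 had levels of 0.49, 0.42, -0.03, -0.19 and 0.15 in the p53f/f HCC, -0.38, 0.39, 0.59, -0.23 and -0.19 in the p53LKO HCC, and -0.89, -1.25, -0.87, -1.52 and -0.48 in the ICC. It fell just over 2-fold without overlap (-1.04 ± 0.25, 2.05-fold, adjusted p = 0.00778). This call was lost without the p53LKO HCC of mouse 3733 (-0.95) or 3975 (-0.90) or the ICC of mouse 3733 (-0.98) or 3977 (-0.91), and with the mouse as a block (-0.77, adjusted p = 0.0894). Thrsp, a small nuclear protein that accompanies fatty acid synthesis, measured 3.46, 5.90, 4.74, 1.45 and 2.45 in the p53f/f HCC, 4.10, 4.81, 4.74, 3.94 and 2.53 in the p53LKO HCC, and 1.91, -0.60, 0.13, 1.08 and 2.22 in the ICC. It had the widest spread of the regulators in the p53f/f HCC and, at 8.43-fold, the largest fall of the 29 genes in the ICC (-3.08 ± 0.59, adjusted p = 0.00209). Between the HCC none of the 3 passed by the probes used.

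Synthesis of palmitate had 4 of 6 genes lower in the ICC. Acss2, which activates acetate to acetyl-CoA, had levels of 5.0, 4.55, 3.30, 3.27 and 2.61 in the p53f/f HCC, 3.09, 4.72, 4.0, 3.31 and 4.08 in the p53LKO HCC, and 3.52, 0.21, 1.62, 2.57 and 1.53 in the ICC. The ICC of mouse 3731 lay among the HCC, and the other 4 below them (-1.95 ± 0.55, 3.86-fold, adjusted p = 0.015; with the mouse as a block -2.08, adjusted p = 0.085). Acaca, acetyl-CoA carboxylase of the cytosol, measured 4.33, 5.08, 4.08, 3.25 and 3.54 in the p53f/f HCC, 4.29, 4.94, 4.99, 4.82 and 3.96 in the p53LKO HCC, and 2.85, 2.46, 3.14, 2.85 and 2.95 in the ICC. The ICC fell without overlap (-1.75 ± 0.23, 3.36-fold, adjusted p = 0.000297), and a second probe on the gene passed as well (-1.35). The other 2 probes under its symbol, which also passed, are placed on chromosome 12 while Acaca lies on chromosome 11, and one of them was well above background in 0 of 5 ICC. Fasn, fatty acid synthase, had levels of 2.68, 3.09, 1.79, -0.66 and 0.81 in the p53f/f HCC, 0.82, 2.44, 2.75, 0.77 and 0.33 in the p53LKO HCC, and -0.03, -0.90, -0.75, -0.47 and -0.68 in the ICC. The 5 ICC lay close together and below every p53LKO HCC (-1.98 ± 0.45, 3.95-fold, adjusted p = 0.00556), whereas the p53f/f HCC spread from -0.66 to 3.09. Me1, malic enzyme, which supplies NADPH, measured 3.31, 4.88, 4.28, 2.60 and 2.92 in the p53f/f HCC, 4.74, 5.17, 5.04, 5.64 and 4.10 in the p53LKO HCC, and 3.84, 3.43, 3.15, 3.41 and 3.60 in the ICC. It was the one member that passed in both comparisons, higher in p53LKO HCC than in p53f/f HCC by 2.53-fold (1.34 ± 0.44, adjusted p = 0.0389, exact permutation p = 0.0476) and lower in the ICC than in p53LKO HCC by 2.73-fold without overlap (-1.45 ± 0.27, adjusted p = 0.00175). The rise between the HCC was lost without any one of the p53f/f HCC 3681 T1, 3717 T1 and 3717 T2 or the p53LKO HCC of mice 3976, 3731, 3733 and 3975, with differences from 1.09 to 1.39 and adjusted p from 0.0574 to 0.0919. It was also lost with normexp, with quantile normalization, with scaling to the probes above background on every array, without a filter on dim probes, with the slide or the row as a block, in the upper row alone, with the methods' t-test and with the tumors of mouse 3717 averaged (1.09 to 1.45, adjusted p from 0.0556 to 0.0928). Of its other probes, one passed (1.53, adjusted p = 0.0248) and one did not (1.28, adjusted p = 0.05). Acly, which cleaves citrate to acetyl-CoA, ranged from 4.5 to 5.47 in the p53LKO HCC and from 4.29 to 5.16 in the ICC (-0.32 ± 0.25, adjusted p = 0.318). Acacb, the carboxylase at mitochondria, ranged from 0.99 to 2.89 and from 0.48 to 1.59 (-0.89 ± 0.34, adjusted p = 0.0524) and passed without the p53LKO HCC of mouse 5283 (-1.12) or the ICC of mouse 3731 (-1.02). Acly and Acacb thus overlapped between ICC and HCC where Acaca and Fasn did not.

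Of the 9 elongases and desaturases, 5 were lower in the ICC than in p53LKO HCC, 2 others were lower in p53LKO HCC than in p53f/f HCC, and Elovl1 and Elovl3 passed in neither comparison. Elovl6, which extends palmitate, had levels of 4.05, 4.22, 3.43, 1.78 and 2.27 in the p53f/f HCC, 2.66, 4.0, 3.11, 2.86 and 3.37 in the p53LKO HCC, and 2.51, 1.43, 1.57, 2.12 and 1.71 in the ICC. Scd1, the main stearoyl-CoA desaturase of liver, measured 7.91, 7.28, 6.78, 6.14 and 7.39 in the p53f/f HCC, 6.15, 7.26, 7.27, 5.66 and 6.57 in the p53LKO HCC, and 5.97, 3.45, 3.99, 5.21 and 3.80 in the ICC. Scd2, a related desaturase, had levels of 6.47, 6.13, 6.16, 5.51 and 4.98 in the p53f/f HCC, 6.05, 7.11, 7.29, 5.70 and 6.10 in the p53LKO HCC, and 5.28, 5.43, 5.08, 4.79 and 5.96 in the ICC. All 3 were lower in the ICC, Elovl6 without overlap (-1.33 ± 0.29, adjusted p = 0.00411), Scd1 by 4.28-fold with the ICC of mouse 3731 in the range of the HCC (-2.10 ± 0.50, 0.00681), and Scd2 by 2.22-fold (-1.15 ± 0.34, 0.0185). The call of Scd2 was lost without the p53LKO HCC of mouse 3733 (-0.98) or 3975 (-0.94) and with the mouse as a block (-0.81, adjusted p = 0.0882). Fads1 and Fads2, the desaturases of polyunsaturated fatty acids, are neighbours in the genome. Fads1 measured 5.09, 4.13, 2.61, 2.90 and 3.29 in the p53f/f HCC, 2.95, 3.72, 3.61, 2.85 and 3.81 in the p53LKO HCC, and 2.46, 1.55, 1.75, 2.25 and 2.40 in the ICC, and fell without overlap (-1.31 ± 0.26, 2.47-fold, adjusted p = 0.00281). Fads2 had levels of 4.34, 3.43, 2.10, 1.95 and 2.64 in the p53f/f HCC, 2.25, 3.41, 3.02, 2.07 and 3.63 in the p53LKO HCC, and 2.03, 1.48, 0.95, 0.76 and 2.40 in the ICC, with the ICC of mouse 5283 inside the range of the HCC (-1.35 ± 0.39, 2.56-fold, adjusted p = 0.0173). Elovl2 and Elovl5, elongases of polyunsaturated fatty acids, behaved otherwise. Elovl2 measured 6.85, 3.71, 3.86, 5.05 and 5.61 in the p53f/f HCC, 3.17, 3.30, 2.16, 3.33 and 3.97 in the p53LKO HCC, and 3.69, 0.21, 2.32, 3.31 and 1.57 in the ICC. Elovl5 had levels of 6.65, 4.43, 4.51, 4.74 and 5.82 in the p53f/f HCC, 3.46, 3.88, 3.89, 4.15 and 3.89 in the p53LKO HCC, and 4.24, 3.08, 3.39, 3.93 and 3.65 in the ICC. Every p53f/f HCC was above every p53LKO HCC for Elovl5, a fall of 2.60-fold (-1.38 ± 0.40, adjusted p = 0.0233), and Elovl2 fell 3.55-fold with the p53LKO HCC of mouse 5283 among the p53f/f HCC (-1.83 ± 0.57, adjusted p = 0.0303, exact permutation p = 0.0238). Neither differed past the thresholds between ICC and HCC of p53LKO mice, Elovl2 by -0.97 ± 0.60 (adjusted p = 0.211) and Elovl5 by -0.19 ± 0.23 (adjusted p = 0.518). The call of Elovl5 between the HCC was lost without 3717 T2 (-1.23, adjusted p = 0.0592) or the p53LKO HCC of mouse 3731 (-1.28, 0.0518). That of Elovl2 was lost without any one of 3681 T1, 3717 T1 and 3717 T2 or the p53LKO HCC of mice 3976, 3731, 3733 and 3975, with differences from -1.87 to -1.37 and adjusted p from 0.0501 to 0.0715. These losses are among the 12 of 25 alternatives that ended the call of Elovl2. Elovl1, which acts on saturated very long chains, ranged from 4.99 to 5.41, from 5.28 to 5.91 and from 4.88 to 5.80 in the 3 groups and passed in neither comparison. Elovl3 was well above background in 4 of 5 p53f/f HCC, 1 of 5 p53LKO HCC and 0 of 5 ICC, and was tested between the HCC only (-2.43 ± 1.15, adjusted p = 0.127). It entered that test through the p53f/f HCC alone, so the pass it gained when 3717 T1, its lowest p53f/f HCC, was left out is not read as a difference.

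Of the 5 glycerolipid genes, 3 fell in the ICC. Gpam, the acyltransferase that starts glycerolipid synthesis at mitochondria, had levels of 2.29, 1.55, 1.2, 0.38 and 0.71 in the p53f/f HCC, 0.05, 0.83, 1.30, 0.16 and 0.46 in the p53LKO HCC, and -0.78, -1.09, -1.43, -1.12 and -0.76 in the ICC. Dgat1 and Dgat2 catalyse the last step to triglyceride. Dgat1 measured 0.96, 2.10, 0.96, 0.77 and 0.27 in the p53f/f HCC, 2.11, 1.49, 1.64, 0.56 and 2.08 in the p53LKO HCC, and 0.19, 0.12, 0.32, 0.25 and 1.11 in the ICC. Dgat2 had levels of 6.94, 6.42, 6.26, 6.83 and 6.53 in the p53f/f HCC, 6.72, 7.16, 7.04, 6.81 and 6.98 in the p53LKO HCC, and 4.71, 2.46, 4.64, 5.16 and 3.65 in the ICC. Gpam fell 3.02-fold without overlap (-1.59 ± 0.25, adjusted p = 0.000796). Dgat2, which was steady across the 10 HCC at 6.26 to 7.16, fell 7.06-fold (-2.82 ± 0.44, adjusted p = 0.000676), with the ICC of mouse 3733 lowest at 2.46, and Dgat1 fell 2.26-fold (-1.18 ± 0.31, adjusted p = 0.0113) with the ICC of mouse 5283 apart from the other 4. Lpin1, a phosphatidate phosphatase, measured 1.45, 0.39, -0.81, 0.51 and 0.38 in the p53f/f HCC, -0.80, -0.70, -0.77, -1.21 and -1.63 in the p53LKO HCC, and -0.34, -0.96, -0.94, -0.81 and -0.20 in the ICC. It was lower in p53LKO HCC than in p53f/f HCC by 2.65-fold (-1.41 ± 0.36, adjusted p = 0.0135, exact permutation p = 0.0317), with the p53f/f HCC of mouse 3716 among the p53LKO HCC, and had a higher mean in the ICC than in the p53LKO HCC, without passing (0.37 ± 0.24, adjusted p = 0.22). Among the upper-row arrays alone Lpin1 differed by -1.14 between the HCC and did not pass (adjusted p = 0.0753). Pnpla3, a lipid droplet hydrolase, ranged from -2.44 to 1.67 in the p53f/f HCC, from -4.15 to 0.09 in the p53LKO HCC and from -4.23 to -2.24 in the ICC, and was not well above background in 2 p53LKO HCC and 3 ICC. The probe used passed in neither comparison, and a second probe, which passed as lower in the ICC, was well above background in 0 of 5 ICC and 3 of 5 p53LKO HCC and entered the test through the HCC alone, so it is not counted.

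Markers of other cell types were set beside the genes called between the HCC. Of the endothelial markers 1 of 5, Stab2, was lower in p53LKO HCC (-1.17), with summed levels of 4.58 to 5.34 in the p53f/f HCC and 4.68 to 5.05 in the p53LKO HCC. Of the 9 hepatocyte markers 0 passed both thresholds, with a median of -0.29 and summed levels of 10.74 to 11.67 and 10.48 to 10.94, and 2 of them, Alb (-0.60) and Fah (-0.80), were lower past the adjusted p alone. Of the 5 lymphocyte markers 0 passed both thresholds, with a median of -0.38. Markers of stellate cells and fibroblasts had a median of 0.91, with 0 of 6 past both thresholds and summed levels of 3.45 to 5.56 and 4.89 to 7.12. For proliferation the median was 0.73, with 0 of 5 past both and summed levels of 0.58 to 3.92 and 2.51 to 4.3. Macrophage (0 of 6, median 0.35) and biliary markers (0 of 5 tested, median 0.24) did not pass either. Over 3 of 5 adipocyte genes, Retn, Cfd and Lep, the summed level was -1.83 to -0.71 in the p53f/f HCC, -3.33 to -2.61 in the p53LKO HCC and -3.18 to -0.61 in the ICC. Retn, the gene of the adipokine resistin, passed as lower in p53LKO HCC, but it entered the test through the p53f/f HCC alone, being well above background in 5 of 5 there and in 2 of 5 p53LKO HCC, as did Cfd (3 and 0 of 5) and the acinar gene Pnlip (3 and 0 of 5), which passed as lower too. Cfd (adjusted p = 0.0824) and Lep (-0.04, adjusted p = 0.935) did not pass. Adipoq and Plin1, the defining genes of fat cells, were well above background on 1 and 0 of the 5 p53f/f HCC and on 0 of the 5 p53LKO HCC. The part of these markers in the differences of the 5 genes was not tested. All 5 genes called between the HCC had the same direction within slide 1, which held 2 p53LKO and 4 p53f/f HCC, within slide 2, which held 3 and 1, and within the upper row, which held 3 and 5. These arrays are among those on which the 5 were called.

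**Figure D3:**
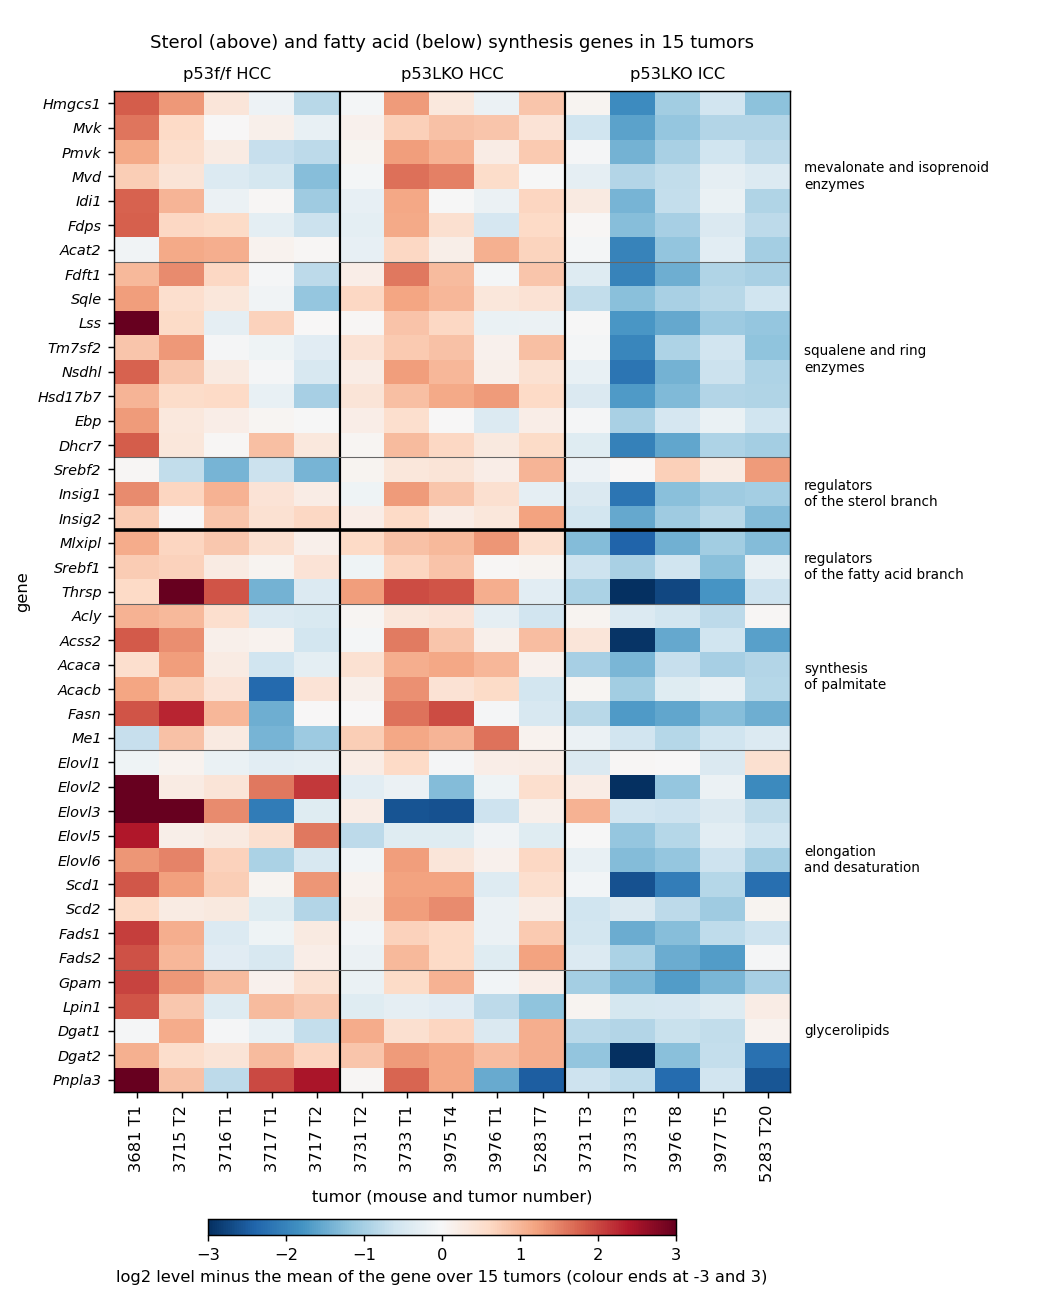
Levels of the 41 genes in the 15 tumors, each gene shown relative to its own mean over all tumors on the log2 scale (red above, blue below), with tumors in columns by group and genes in rows by role. Most genes are blue across the ICC, least so in the ICC of mouse 3731, and Srebf2 is blue in 4 of the p53f/f HCC.

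The 4 mice with both tumors allowed a comparison within the animal. Of the 40 genes tested, 29 were lower in the ICC than in the HCC of the same mouse in 4 of 4 mice, where 32.6% of all genes tested were, 8 in 3 mice, Srebf2 and Acly in 2, and Lpin1 in 1. These 29 include 26 of the 29 genes called lower in the ICC, the exceptions being Hmgcs1, Acat2 and Acss2, lower in 3 mice each. The 4 pairs are among the arrays on which the genes were called. The size of the fall differed between mice. For the sterol branch the median difference was -0.26 in mouse 3731, -2.60 in mouse 3733, -1.33 in mouse 3976 and -1.44 in mouse 5283, and for the fatty acid branch -0.58, -2.29, -1.11 and -0.99. Mouse 3733 had the largest fall in 36 of the 40 genes and mouse 3731 the smallest in 26. The HCC of mouse 3733 was also the highest of the p53LKO HCC in 11 of the 15 sterol enzymes, and its ICC the lowest ICC in 15 of 15. The ICC of mouse 3731 was the highest ICC in 13 of 15. Summed over the hepatocyte markers, the level of the ICC was 9.65 in mouse 3731, 7.14 in mouse 3733, 8.73 in mouse 3976, 9.74 in mouse 3977 and 8.69 in mouse 5283, lowest in the ICC with the lowest sterol enzymes. Biliary markers summed to 6.89, 7.24, 6.14, 6.62 and 6.84 in the same tumors. The part of either in these differences was not tested. With the mouse as a fixed block over these 8 tumors, 8 sterol and 12 fatty acid genes were lower past both thresholds, where 14.0% of all genes were lower and 10.4% higher. As a random block over all 10 it left 14 and 15, where 15.6% of all genes were lower and 12.4% higher.

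**Figure D4:**
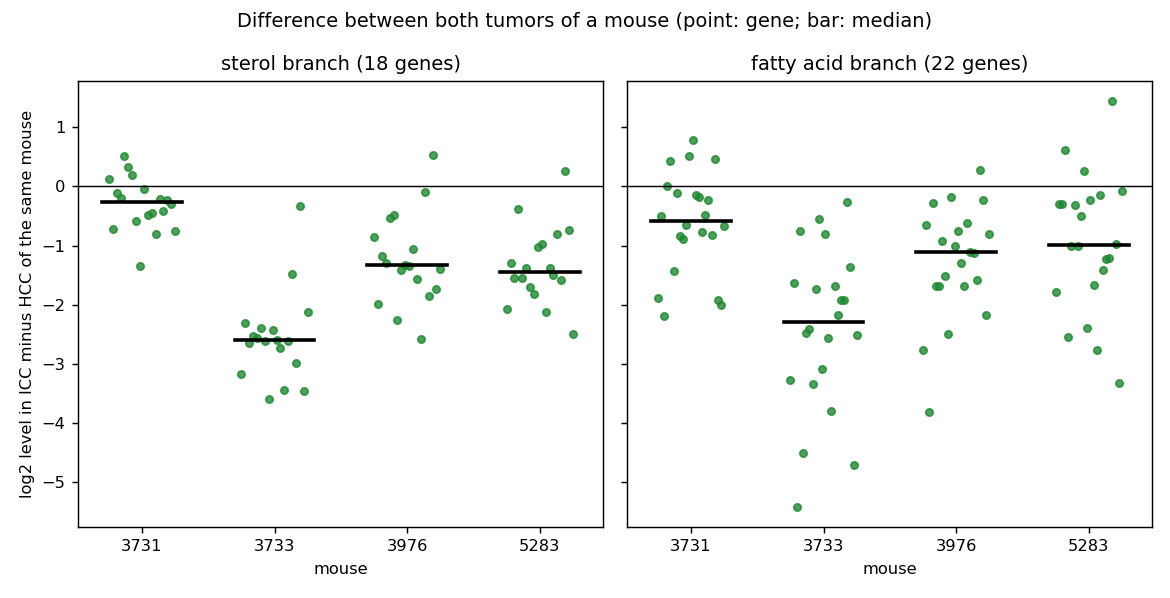
Difference in log2 level between the ICC and the HCC of the same mouse for 18 sterol and 22 fatty acid branch genes (points) in 4 mice, with the median as a bar. Medians lie below 0 in every mouse, nearest to 0 in mouse 3731 and farthest from it in mouse 3733.

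Within a group the sterol enzymes varied together from tumor to tumor. Among the p53f/f HCC, 3681 T1 was the highest in 12 of the 15 sterol enzymes and 3717 T2 the lowest in 12, so that the spread of this group was wide. The median SD over the 15 enzymes was 0.82 in the p53f/f HCC, 0.49 in the p53LKO HCC and 0.62 in the ICC, and in 14 of 15 the SD was higher in the p53f/f than in the p53LKO HCC. After each level was set against its group mean, the median Pearson correlation over the 105 pairs of sterol enzymes was 0.77 across the 15 tumors, from -0.05 to 0.98. It was 0.40 over the 253 pairs of the fatty acid branch, 0.49 over the 414 pairs between both branches and 0 over all 145427985 pairs of genes. The closest pair was Hmgcs1 and Idi1 (0.98), followed by Pmvk and Fdps (0.97). Across branches Acss2 went with Hmgcs1 (0.95) and Elovl6 with Pmvk (0.91), and within the fatty acid branch Fads1 went with Fads2 (0.87), Fasn with Acaca (0.86), Thrsp with Me1 (0.84) and Elovl2 with Elovl5 (0.81). Nsdhl followed the mean of its branch most closely (0.98), while Acat2 (0.37), Srebf2 (0.37) and Insig2 (0.34) followed it least in the sterol branch and Elovl1 (0.09) was loosest in the fatty acid branch. Without the 2 tumors farthest from the median, 3681 T1 and 3717 T2, the sterol enzymes had a median of 0.69. Scaling to spike-in probes left it at 0.77 but moved that of all pairs of genes to 0.33. The 15 points share tissue of whole tumors, mice and the scaling of each array, so these correlations are descriptions and have no p.

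**Figure D5:**
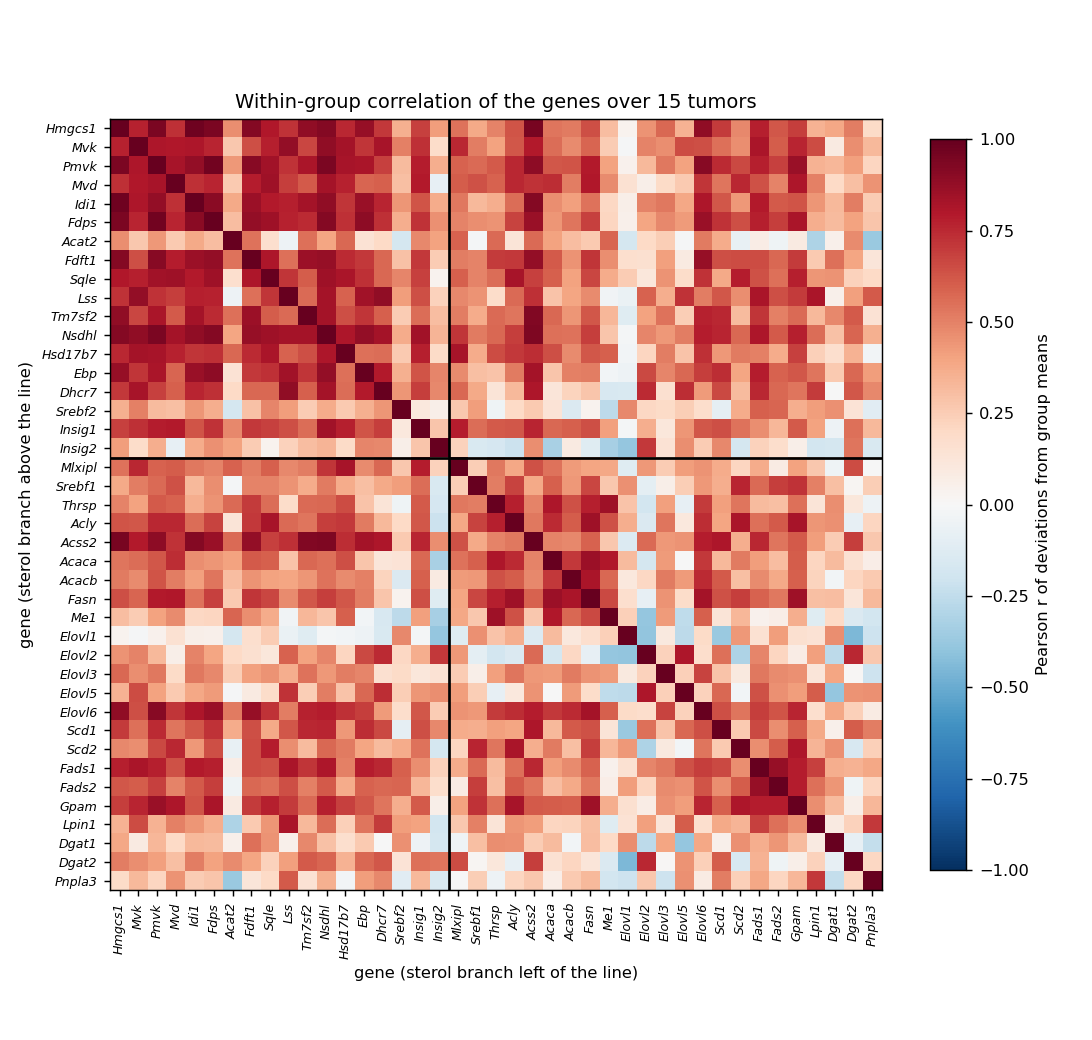
Pearson correlation of each pair of the 41 genes over 15 tumors after subtraction of the group means, from -1 (blue) to 1 (red), with the sterol branch above and left of the line. The block of sterol enzymes at the upper left is almost uniformly red, with a median of 0.77 over its 105 pairs, and Acss2, Elovl6 and Fads1 join it from the fatty acid branch.

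Other genes of the same pathways, which are not among the 41, were also mostly lower where they differed in the ICC. Of 7 further sterol genes 4 were lower and 0 higher in the ICC, with a median log2 difference of -1.29. These were the sterol synthesis genes Cyp51 (-1.35), Msmo1 (-1.34) and Sc5d (-1.46), and Stard4, a sterol carrier (-1.29). None of the 7 passed between the HCC. Of 20 further fatty acid genes tested, 11 passed as lower and 2 as higher in the ICC, with a median of -1.33. One of the 11, Mogat1, was well above background in 0 of 5 ICC and 4 of 5 p53LKO HCC and entered the test through the HCC alone. The others were the citrate carrier Slc25a1 (-1.45), the elongation enzymes Hsd17b12 (-1.42) and Tecr (-1.58), Mlx, the partner of ChREBP (-1.04), the liver X receptor gene Nr1h3 (-1.65), Agpat2 (-1.94), Lpin2 (-1.34), Lpin3 (-1.65) and the acyl-CoA synthetases Acsl3 (-1.79) and Acsl5 (-1.33). The desaturases Scd3 (1.81) and Scd4 (1.58) were higher in the ICC, unlike Scd1 and Scd2. Between the HCC, Fads3 (2.89) and Tecr (1.05) were higher and Scd3 (-2.0) was lower in p53LKO mice.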

How the data were processed

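RNA of 15 tumors was hybridised to 1-colour Agilent mouse arrays, and the authors extracted the images with Feature Extraction 10.7.3.1, per the submitters' processing notes. The deposited scanner files hold an intensity per spot, the background-subtracted processed signal. A deposited log2 table of the authors holds the same levels centred per probe on medians of 10 arrays and served as an alternative for the HCC only. The settings of GeneSpring, which the study used, are not given in the sources used here.

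Spots of a probe were averaged as log2 signals in R 4.3.3, and each array was set relative to its own 75th percentile over 55681 non-control probes. Tested were probes called well above background in 3 or more tumors of either group, 36086 for the HCC and 32670 for ICC against HCC, with limma 3.58.1 (lmFit, eBayes, Benjamini-Hochberg over all) and the thresholds of the study, 0.05 for the adjusted p and 2 for the fold change. Genes were read from the probe with the highest mean level and matched to RefSeq by symbol. That probe lies off the gene in mm9 for Fdps (chr10:93242421-93242480), on an unplaced piece of chromosome 13 for Hmgcs1, and has no position for Dgat1. For Fdft1 it is placed at chr14:19364899-19364958, far from the other probe of the gene at chr14:63764562-63764621. Only the chromosome of a probe was compared with that of its gene, so positions within a chromosome were not checked. The exact permutation test enumerates all 252 splits of 10 arrays and treats the tumors as independent, although some came from the same mouse. A summed marker level is the log2 of summed unlogged levels. Plots used matplotlib 3.10.9 in Python 3.11.15.

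Values in every tumor are given for members past both thresholds in either comparison, for the 6 regulators, and for Hmgcs1, Sqle, Fdft1, Fasn, Acaca and Scd1. Members and lists were chosen with earlier results of these data known, and 1 gene listed beside the members is not reported here. Mouse numbers pair HCC and ICC of 4 mice as tumors of the same animal; their deviations from the group means correlated by -0.14 to 0.07, and those of 21 pairs of different mice by -0.26 to 0.28. In simulated data 63% of log2 changes of 1.5 and 95% of changes of 3 were recovered for the HCC, and 57% and 95% for ICC against HCC. Only 100 probes were changed by each size there, with noise independent between probes. The real comparisons called far more probes, 1310 higher and 5752 lower for the HCC and 4221 and 4395 for ICC against HCC. An adjusted p is harder to pass with few changes, so these rates do not give the sensitivity of the real comparisons. The number of arrays and signal over background limit the precision, and 0 probes were saturated.

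Alternatives were normexp background correction (offset 50) with quantile normalization, quantile normalization alone, scaling to the probes above background on every array or to 7 spike-in probes, other filters on dim probes, slide, row or mouse as a block, the upper row alone, all 15 arrays in 1 model, the methods' t-test, no fold limit, the mean of the probes of a gene, the authors' table, the mean of both tumors of mouse 3717, and leaving out each tumor. Settings that compare ICC with the HCC of 1 row were chosen after seeing the data.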

Additional observations from a re-analysis of the deposited data

Results flagged for a closer look

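In 5 of the 123 groups of 5 tumors, 1 tumor of a gene stood far from the other 4, the gap to its nearest neighbour being more than 0.71 of the range of the group, where chance gives about 1 in 20 groups, or 6.2. The p53f/f HCC 3681 T1 was high for Lss, at 4.31 against 0.69 to 1.67 in the other p53f/f HCC, and for Ebp, at 6.79 against 5.50 to 5.83. The p53f/f HCC 3717 T1 was low for Acacb, at -0.80 against 1.95 to 2.73. The ICC of mouse 3731 was high for Elovl3, at -3.27 against -5.04 to -4.74, but Elovl3 was well above background in 0 of the 5 ICC. The ICC of mouse 5283 was high for Dgat1, at 1.11 against 0.12 to 0.32. The causes were not tested.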

How the results depend on the processing

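By the probe used, the 5 and 29 differences past the thresholds kept their sign under the alternatives listed with the methods. On slide 1 alone, however, Lss was 0.18 higher in the ICC, and the dimmer probe of Mlxipl went the other way. Among genes not past the thresholds, 24 of the 36 between the HCC and 5 of the 11 between ICC and HCC changed sign under at least 1 alternative. Of the 29 genes lower in the ICC, 10 kept their call throughout. Between the HCC the single sterol gene past the thresholds became 0 with scaling to the probes above background on every array and 6 with the spike-in probes, and stayed at 1 to 1 when a tumor was left out. The 4 fatty acid genes became 2 with normexp, 1 without a filter on dim probes, 2 with the row as a block, 1 in the upper row alone, 0 with the methods' t-test after adjustment, 2 with the tumors of mouse 3717 averaged, and 1 to 4 when a tumor was left out. At an unadjusted p under 0.05 and over 2-fold the methods' t-test gave 1 sterol and 4 fatty acid genes. Between ICC and HCC the 14 sterol genes became 9 with normexp, 9 with the row as a block and 7 in the lower row alone, and 14 to 16 when a tumor was left out. The 15 fatty acid genes became 9 with scaling to the probes above background on every array, 8 with the row as a block, 8 in the lower row alone, and 13 to 16 when a tumor was left out. The lower row alone was chosen after seeing the data. So was leaving out the 2 p53LKO HCC of the lower row, which gave 14 and 17, where 2452 of all genes were lower and 1740 higher. With the mouse as a fixed replicate block over 4 mice, the 14 sterol genes became 8 and the 15 fatty acid genes 12, and the block changed no other call among the 29 than those printed above. Over all genes the HCC comparison called 371 higher and 477 lower with normexp, against 912 and 1508, 746 and 367 among genes well above background on every array, and 589 and 1196 with the methods' t-test. It called 792 and 1507 with the row as a block and 792 and 1518 in the upper row alone. Without a filter on dim probes it called 701 and 1334, and with the tumors of mouse 3717 averaged 737 and 1341. ICC against HCC gave 1472 and 1316 with normexp, against 1992 and 2506, and 923 and 1898 among genes well above background on every array. With the row as a block it gave 1562 and 2186, and in the lower row alone 1462 and 1973. The causes were not tested. Genes near the background, Elovl3 and Pnpla3, are limited by signal.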
